A study of Mus musculus with 6 samples.

Results

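The genes described here are the machinery with which the endoplasmic reticulum (ER) folds secreted proteins, senses misfolded ones and disposes of them. They were chosen by name: 40 genes, of which 25 serve folding, 3 belong to the sensing arm of the unfolded protein response (UPR) and 12 to ER-associated degradation (ERAD). A probe set with that gene as its single symbol was found for 39 of the 40, among 22180 genes measured in all. Pdia4 is the one left out, because the annotation gives its probe set a second gene. The gene listed as Vimp carries the symbol Selenos in the annotation, and Ero1lb is also known as Ero1b.

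Both groups consisted of livers from mice that lack CREB-H, through the allele Creb3l3tm1.1Sad/J of the gene Creb3l3, aged 8 weeks and kept on a normal diet. In the GFP group (3 mice), an adeno-associated virus (AAV-GFP) delivered the gene of green fluorescent protein. In the CREB-H group (3 mice), AAV-CREB-H-ΔTC delivered CREB-H in its active form. CREB-H is a transcription factor of liver and intestine that is normally anchored in the ER membrane and released by cleavage. Virus was injected into the peritoneal cavity, and livers were taken 2 weeks later. Which promoter drives the vector's insert was not given in the sources used here. No mice with an intact Creb3l3 gene were among the samples, so supplied active CREB-H is compared with its absence, and wild type with knockout is not.

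A secreted protein enters the ER unfolded. BiP (Hspa5) and its cofactors, the lectin chaperones calnexin and calreticulin, and the disulfide isomerases fold it, and chains that fail are marked by mannose trimming, moved back through the membrane and degraded by the proteasome. When unfolded chains accumulate, the sensors IRE1 (Ern1), PERK (Eif2ak3) and ATF6 raise the transcription of many of these same genes, with XBP1, made from an mRNA that IRE1 splices, as one of the factors. Hepatocytes secrete most plasma proteins and lipoproteins, so this machinery is abundant in liver. CREB-H belongs to the same family of membrane-bound factors as ATF6, which gives the question asked here: whether the active form changes the folding or the degradation genes, and whether it changes them alike.

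Promoter sequences are shown first, because some of the members hold stress elements in them. The choice by name did not use sequences, but it took many genes that the UPR is known to induce. The shares of elements below are therefore not independent of that choice. RefSeq (GRCm38.p6) gave a window of 250 bases before and 50 bases after the start site for 34 of the 39 genes, in 41 windows. The elements were searched on both strands as exact matches, and near matches were not counted. The ER stress element (ERSE, bound by ATF6 with NF-Y) was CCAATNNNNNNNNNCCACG, ERSE-II was ATTGGNCCACG, the unfolded protein response element (UPRE, bound by XBP1 and ATF6) was TGACGTGG, and the cyclic AMP response element (CRE) was TGACGTCA. ERSE and ERSE-II end in the core CCACG, and the other strand of the UPRE contains it. An ERSE was present in 10 of the 34 genes (29.4%), against 37 of the 27025 genes with a window (0.137%), so that the members make up 10 of all 37. ERSE-II was found in 2 of 34 genes (Herpud1 and Dnajb11; 12 of all 27025), the UPRE in 2 (Txndc5 and Txndc11; 193 of all, 0.714%) and the CRE in 0 (549 of all, 2.03%). The core CCACG alone was in 29 of 34 genes (85.3%), against 35.5% of all. Among other genes of the same compartments the ERSE was in 0 of 24 folding genes, 0 of 9 UPR regulators and 0 of 34 ERAD genes with a window. Such a match is a description of letters and not a site of binding.

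The ERSE matches of the 10 genes are given with their fixed ends in capitals and the spacer in lower case, each read in the direction that begins with CCAAT.
Hspa5: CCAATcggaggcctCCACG
Hsp90b1: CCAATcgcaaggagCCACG
Hsp90b1: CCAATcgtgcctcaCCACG
Calr: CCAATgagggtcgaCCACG
Canx: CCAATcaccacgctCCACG
Pdia6: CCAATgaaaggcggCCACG
Ero1lb: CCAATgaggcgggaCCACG
Dnajc3: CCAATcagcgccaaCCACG
Creld2: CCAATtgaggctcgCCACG
Derl3: CCAATggggaagtcCCACG
Syvn1: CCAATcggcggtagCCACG

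Hsp90b1 held 2 matches and the other 9 genes 1 each. In GRCm38.p6 they lie at chr2:34772025-34772043 (Hspa5), chr10:86705638-86705656 and chr10:86705533-86705551 (Hsp90b1), chr8:84847075-84847093 (Calr), chr11:50325800-50325818 (Canx), chr12:17266491-17266509 (Pdia6), chr13:12565682-12565700 (Ero1lb), chr14:118937827-118937845 (Dnajc3), chr15:88819520-88819538 (Creld2), chr10:75893242-75893260 (Derl3) and chr19:6046532-6046550 (Syvn1). All 11 were upstream of the start site, with the first base between -212 (Hsp90b1) and -44 (Syvn1). Of the 10 genes, 8 serve folding and 2 (Derl3 and Syvn1) ERAD, and no UPR sensor gene held one.

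The promoters of 5 genes are shown in full for the 250 bases before the start, because they carry the different elements next to the values given later: Hspa5 and Creld2 with an ERSE, Herpud1 with ERSE-II, Txndc5 with a UPRE, and P4hb with the core alone. Capitals mark the elements and every further CCACG on either strand. The windows are chr2:34771840-34772089 on the plus strand, chr15:88819396-88819645 on the plus strand, chr8:94386179-94386428 on the plus strand, chr13:38527915-38528164 on the minus strand (the one of 3 start sites with the element) and chr11:120573254-120573503 on the minus strand.
Hspa5: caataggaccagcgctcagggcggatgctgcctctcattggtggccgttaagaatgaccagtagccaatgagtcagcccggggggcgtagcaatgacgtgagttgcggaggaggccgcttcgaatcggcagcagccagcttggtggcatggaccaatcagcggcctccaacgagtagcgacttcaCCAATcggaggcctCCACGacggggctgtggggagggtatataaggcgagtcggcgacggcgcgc
Creld2: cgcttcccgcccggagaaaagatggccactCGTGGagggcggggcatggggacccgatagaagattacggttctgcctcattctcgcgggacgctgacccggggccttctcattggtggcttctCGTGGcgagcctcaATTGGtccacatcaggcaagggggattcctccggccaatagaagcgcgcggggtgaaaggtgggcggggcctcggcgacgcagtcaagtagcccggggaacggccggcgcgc
Herpud1: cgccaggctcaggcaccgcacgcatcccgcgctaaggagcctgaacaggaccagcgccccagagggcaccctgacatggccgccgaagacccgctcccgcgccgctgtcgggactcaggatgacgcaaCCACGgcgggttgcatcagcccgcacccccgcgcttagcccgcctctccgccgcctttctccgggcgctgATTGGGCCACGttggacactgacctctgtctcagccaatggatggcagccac
Txndc5: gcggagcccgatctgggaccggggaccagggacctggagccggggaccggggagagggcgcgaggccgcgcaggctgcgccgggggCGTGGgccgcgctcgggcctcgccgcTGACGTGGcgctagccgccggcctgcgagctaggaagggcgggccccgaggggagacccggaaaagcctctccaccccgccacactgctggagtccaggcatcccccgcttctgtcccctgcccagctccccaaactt
P4hb: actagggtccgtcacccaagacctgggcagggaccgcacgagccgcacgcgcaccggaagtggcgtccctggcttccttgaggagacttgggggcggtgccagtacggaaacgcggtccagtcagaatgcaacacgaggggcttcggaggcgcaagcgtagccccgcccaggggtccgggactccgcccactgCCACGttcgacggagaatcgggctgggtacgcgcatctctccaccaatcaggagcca

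Values are log2 signals, 1 array per liver, and the arrays had medians between 4.98 and 5.01. Levels of different genes are not comparable on this scale, so each gene is compared only between arrays. Creb3l3, which checks the labels, read 6.55, 5.93 and 6.40 with GFP and 6.73, 7.25 and 7.58 with CREB-H, without overlap. The difference was 0.89 (SE 0.25), with an adjusted p of 0.647 in the limma test over all 41345 probe sets, as in every adjusted p below. Replicate 3 of each group carried signal from Y-linked genes (mean 7.83 and 7.67) that the other 4 arrays did not (3.15 to 3.39), and the labels give no sex. Over 11 hepatocyte markers measured, such as Alb and Ttr, the mean lay between 12.8 and 12.9 on all arrays. Alb, at 13.76 to 13.87, read as high as the highest signal of each array, so this mean could miss a change. All 10 markers of Kupffer cells and other macrophages were higher with CREB-H, although 0 passed: their mean ran from 7.87 to 8.92 with GFP and from 8.31 to 9.15 with CREB-H. In whole liver, fewer cells of a type and less RNA per cell cannot be told apart.

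No folding, sensor or ERAD gene passed the test: 0 of 39 had an adjusted p below 0.05, against 0.00484% of all probe sets (2 of 41345), and the lowest adjusted p was 0.667, that of P4hb. Differences were small. The log2 differences between CREB-H and GFP ran from -0.31 (Dnajb9) to 0.51 (Txndc5), with a median of 0.06, against -0.01 for all probe sets. The median size was 0.126, against 0.118 for all probe sets. At an unadjusted p below 0.05 there were 2 higher genes, P4hb and Txndc5, and 0 lower ones, that is 5.13% of the members against 6.89% of all probe sets (2.93% higher and 3.97% lower). The groups did not overlap in 3 genes, 2 higher (P4hb and Os9) and 1 lower (Sil1), or 7.69%, against 12.3% of all probe sets (5.23% higher and 7.1% lower). All probe sets leaned lower, but the 11164 named genes in the members' range of mean signal leaned higher. Of these, 488 were higher and 317 lower at an unadjusted p below 0.05 (limma), with a median difference of 0.01. Over both directions, neither share of the members exceeded that of all probe sets. The unadjusted count depended on single arrays and settings: leaving out GFP replicates 1, 2 and 3 in turn gave 4, 0 and 5, and leaving out those of CREB-H gave 0, 4 and 1, with 5.65% to 7.63% of all probe sets in the same fits. Its direction depended on them too: without GFP replicate 1 there were 1 higher gene and 3 lower ones (Hspa5, Creld2 and Ern1), and Dnajb9, lower, joined in 5 alternatives. Leaving out 1 array moved the difference by over 1.5 times in 35 of 39 genes, all but Dnajb9, P4hb, Txndc5 and Edem2. The measure is a ratio, which a small shift exceeds where the difference is near 0, as in Derl2 (0.0039). Its share over all probe sets was not computed, so the count does not set the members apart. With 3 against 3 arrays an exact permutation test cannot go below p = 0.1.

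How much change the data allow is set by the 95% intervals of the single genes. In 38 of the 39 genes the interval stayed within a 2-fold change in either direction, and in 20 within 1.5-fold, against 90.7% and 67.0% of all probe sets. The exception at 2-fold was Os9, whose ratio (CREB-H over GFP) had an interval of 0.854 to 2.16. With 1 array left out, 34 to 37 genes stayed within 2-fold and 14 to 21 within 1.5-fold. The narrowest were Erlec1 and Hsp90b1, with a ratio of 1.03 (0.878 to 1.203) and 0.988 (0.840 to 1.16). The median SE of the members, 0.165, was above the 0.142 of all probe sets.

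**Figure D1:**
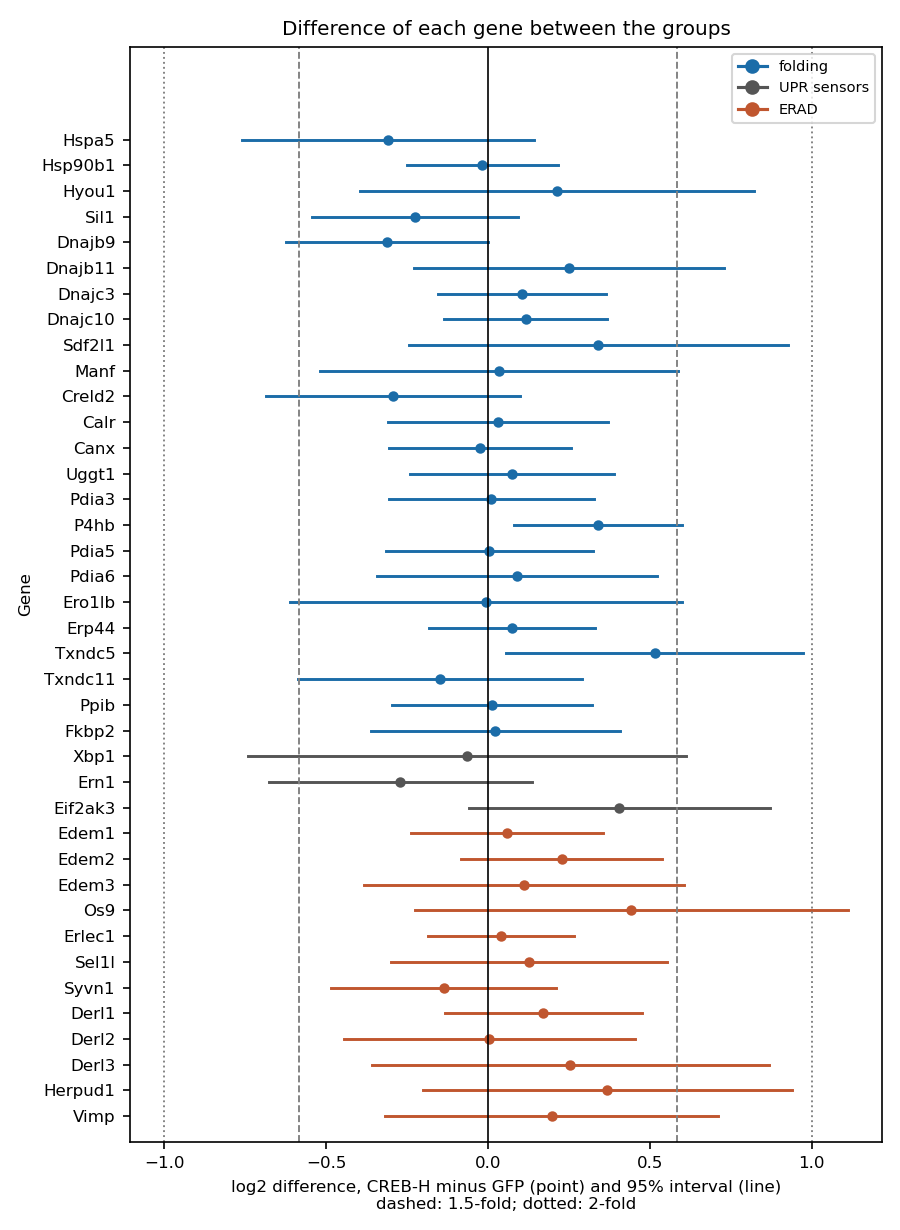
Log2 difference (CREB-H minus GFP) of each of the 39 genes (points) with its 95% interval from limma (lines), 3 arrays per group, in colours for folding, UPR sensors and ERAD; dashed lines mark 1.5-fold and dotted lines 2-fold. Only the lines of P4hb and Txndc5 lie clear of 0, and only that of Os9 crosses a 2-fold change.

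Among BiP and the factors that work with it, 6 of 11 genes were higher and 5 lower, with a median difference of 0.03. Hspa5, the gene of BiP, the main Hsp70 chaperone of the ER and the usual readout of ER stress, is given although the rule for naming genes did not take it. It read 9.02, 9.57 and 9.52 with GFP and 8.87, 9.01 and 9.31 with CREB-H. The groups overlapped because GFP replicate 1 was as low as the CREB-H arrays, and the difference was -0.31 (SE 0.19, adjusted p = 0.821). Without GFP replicate 1 it was -0.48. Dnajb9, a J-domain cofactor of BiP that also restrains IRE1, read 10.75, 10.59 and 10.39 with GFP and 10.20, 10.41 and 10.18 with CREB-H. Of its CREB-H arrays 1 lay just above the lowest GFP array, and the others lay below all 3. Its difference of -0.31 (SE 0.13, adjusted p = 0.726) had the lowest unadjusted p of this group (0.0507). Creld2, an ER-resident protein induced in ER stress, read 8.36, 8.83 and 8.94 with GFP and 8.37, 8.38 and 8.50 with CREB-H. Here too the CREB-H arrays lay with the lowest GFP array, and the difference was -0.29 (SE 0.17, adjusted p = 0.812). It was -0.47 without GFP replicate 1. Sil1, which exchanges the nucleotide of BiP, read 8.72, 8.73 and 8.93 with GFP and 8.64, 8.71 and 8.35 with CREB-H, a difference of -0.22 (SE 0.13, adjusted p = 0.816). Its groups did not overlap, but the nearest arrays read 8.72 and 8.71, and it was -0.12 without CREB-H replicate 3.

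The remaining cofactors went the other way or stayed near 0. Sdf2l1, a stress-induced partner of the J-domain cofactors, differed by 0.34 (SE 0.25), Dnajb11 by 0.25 (SE 0.20) and Hyou1, a large Hsp70-like exchange factor, by 0.21 (SE 0.26). None of the 3 was free of overlap. In Sdf2l1 CREB-H replicate 2 stood alone at 7.71 against 6.58 to 7.11 on the other 5 arrays, and its difference was 0.095 without that array. The same array had the highest mean over 9 markers of pancreatic acinar cells, 5.33 against 4.81 to 4.99 on the others, with Ctrb1 at 6.90 against 5.81 to 6.24. The part of this signal in the values of Sdf2l1, and of Derl3 below, was not tested. Hyou1 was -0.05 without GFP replicate 1, which read 8.67 against 9.17 to 9.75 elsewhere, and Dnajb11 was 0.048 without the same array. Dnajc10, a reductase that also acts in ERAD, differed by 0.12 (SE 0.11) and Dnajc3, an inhibitor of PERK and a cofactor of BiP, by 0.11 (SE 0.11). Manf, which binds BiP and is secreted on stress, differed by 0.03 (SE 0.23), and Hsp90b1, the ER form of Hsp90 known as Grp94, by -0.02 (SE 0.10).

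In the lectin cycle all 4 intervals lay within 1.5-fold. Uggt1, the glucosyltransferase that sends incompletely folded glycoproteins back to the lectins, read 8.09, 8.32 and 8.44 with GFP and 8.26, 8.51 and 8.30 with CREB-H, a difference of 0.07 (SE 0.13). Calr (calreticulin) read 11.58, 11.79 and 11.98 and then 11.68, 11.98 and 11.78, a difference of 0.03 (SE 0.14). Canx (calnexin) read 11.61, 11.61 and 11.71 and then 11.58, 11.80 and 11.47, a difference of -0.02 (SE 0.12). In these genes the spread within a group exceeded the difference between the groups. Pdia3, the isomerase that works with both lectins, differed by 0.01 (SE 0.13). Their signs were not stable: without GFP replicate 1, Calr was -0.07, Uggt1 -0.02 and Pdia3 -0.10, and Canx was 0.05 when CREB-H replicate 3 was left out.

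Of the 7 oxidoreductases measured, 5 were higher, and they included the members with the lowest unadjusted p. P4hb encodes the classic protein disulfide isomerase, which also serves as a subunit of prolyl 4-hydroxylase and of the microsomal triglyceride transfer protein. It read 11.41, 11.19 and 11.21 with GFP and 11.70, 11.57 and 11.56 with CREB-H, so that all 3 CREB-H arrays lay above all 3 GFP arrays. The mean signal was 11.27 ± 0.12 with GFP and 11.61 ± 0.08 with CREB-H (SD, n = 3 in each), a ratio of 1.27 with a 95% interval of 1.06 to 1.51 (log2 difference 0.34, SE 0.11). It did not pass (limma, adjusted p = 0.667), and it stayed between 0.30 and 0.41 under every alternative run. Txndc5, a disulfide isomerase with several thioredoxin domains, read 8.39, 8.31 and 8.97 with GFP and 9.22, 8.93 and 9.06 with CREB-H. GFP replicate 3 reached into the CREB-H range and the other GFP arrays stood well below. The ratio was 1.43 (1.04 to 1.96), a log2 difference of 0.51 (SE 0.19, adjusted p = 0.696), and 0.39 to 0.73 over the alternatives. Txndc5 is also made by plasma cells and endothelium. The 9 markers of B and plasma cells had means of 5.20 to 5.27 with GFP and 5.19 to 5.54 with CREB-H (6 higher, 3 lower), and the 8 of endothelium 9.10 to 9.40 and 9.24 to 9.43 (7 higher, 1 lower). Their part in the result was not tested.

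Txndc11, which works with the EDEM proteins, read 7.23, 7.43 and 7.59 with GFP and 7.17, 7.02 and 7.62 with CREB-H, a difference of -0.15 (SE 0.18) with full overlap. The difference was -0.02 without CREB-H replicate 2. The others of this group stood near 0. Pdia6 differed by 0.09 (SE 0.18), the ER retention factor Erp44 by 0.07 (SE 0.11), Pdia5 by 0.00 (SE 0.13) and Ero1lb, an oxidase that recharges the isomerases, by -0.01 (SE 0.25). The prolyl isomerases were as close: Ppib read 9.92, 9.80 and 10.01 and then 9.89, 10.12 and 9.75, a difference of 0.01 (SE 0.13). Fkbp2 read 8.88, 8.88 and 8.64 and then 8.92, 9.03 and 8.52, a difference of 0.02 (SE 0.16). Neither isomerase separated the groups.

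**Figure D2:**
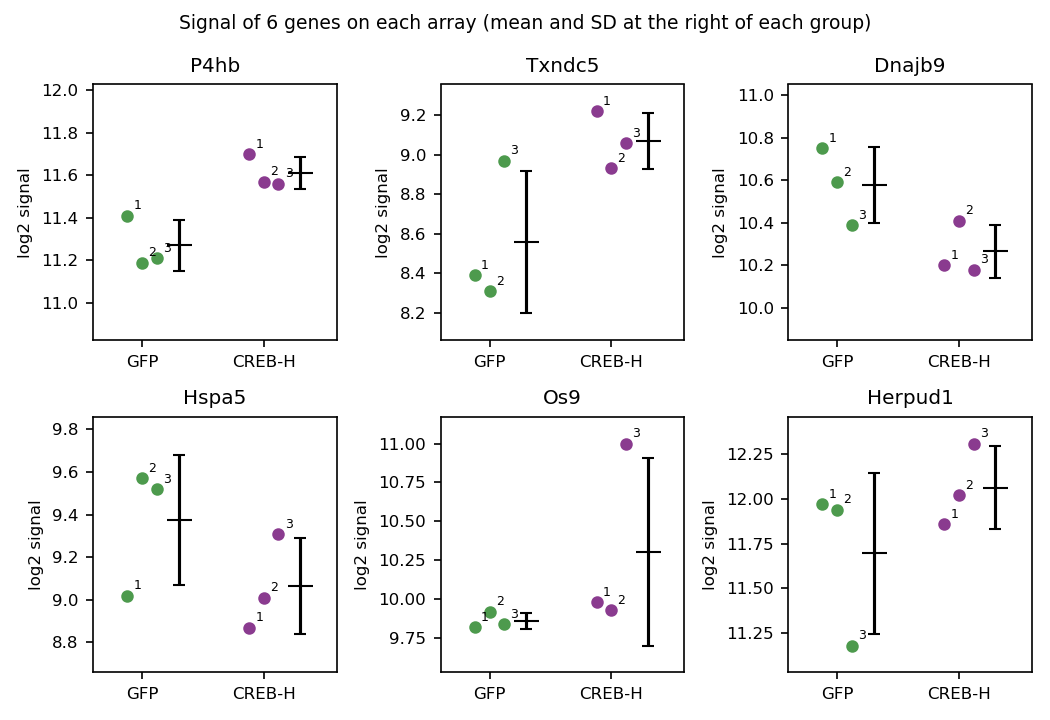
Log2 signal of 6 genes on each array (points, numbered by replicate), with the mean and SD of each group of 3 at its right; each panel has its own range on the vertical axis. The groups are apart in P4hb (11.19 to 11.41 against 11.56 to 11.70), whereas Os9 rests on 1 CREB-H array (11.00) and Herpud1 on 1 GFP array (11.18).

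In the sensing arm Eif2ak3 was higher and Ern1 and Xbp1 lower, and none passed. Eif2ak3, the gene of PERK, which slows translation in stress, read 6.76, 7.03 and 6.78 with GFP and 7.40, 6.85 and 7.54 with CREB-H. CREB-H replicates 1 and 3 lay above all GFP arrays and replicate 2 among them, and the difference was 0.41 (SE 0.20, adjusted p = 0.775). It was 0.61 without CREB-H replicate 2, 0.27 without CREB-H replicate 3 and 0.23 on the 4 arrays without Y-linked signal. Ern1, the gene of IRE1, read 7.94, 8.42 and 8.56 and then 8.03, 8.02 and 8.06, a difference of -0.27 (SE 0.17, adjusted p = 0.826). The CREB-H arrays were close together beside the lowest GFP array, GFP replicate 1, and without that array the difference was -0.46. Xbp1 read 8.95, 9.51 and 10.04 with GFP and 9.44, 9.16 and 9.71 with CREB-H. Its GFP arrays spanned 1.09 on the log2 scale, far more than the difference of -0.07 (SE 0.29), which was 0.21 with GFP replicate 3 left out and -0.34 with replicate 1 left out. Its splicing was not analysed here, since the 1 probe set gives a single level of the gene. None of the 3 intervals stayed within 1.5-fold.

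In ERAD, 11 of 12 genes were higher with CREB-H, by small amounts, with a median difference of 0.15, and 0 had an unadjusted p below 0.05. The EDEM proteins serve the mannose trimming of glycoproteins that failed to fold, and the lectins OS-9 and XTP3-B (Erlec1) read the trimmed mannose. Edem2 read 7.63, 7.69 and 7.99 with GFP and 7.90, 8.08 and 8.01 with CREB-H, a difference of 0.23 (SE 0.13, adjusted p = 0.813). Only GFP replicate 3 reached into the CREB-H range. Os9 read 9.82, 9.92 and 9.84 and then 9.98, 9.93 and 11.00. Its groups did not overlap, yet CREB-H replicates 1 and 2 were close to the GFP arrays, and the difference of 0.44 (SE 0.28, adjusted p = 0.827) was 0.095 without CREB-H replicate 3. Edem3 read 8.50, 8.63 and 8.49 and then 8.61, 8.25 and 9.08, a difference of 0.11 (SE 0.21) that was -0.11 without that same array. Edem1 and Erlec1 differed by 0.06 (SE 0.12) and 0.04 (SE 0.10).

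The membrane complex around the ubiquitin ligase HRD1 (Syvn1) moves such proteins out of the ER. Herpud1, a stress-induced member of it, read 11.97, 11.94 and 11.18 with GFP and 11.86, 12.02 and 12.31 with CREB-H. Its difference of 0.37 (SE 0.24, adjusted p = 0.833) rested on GFP replicate 3, the lowest array by far, and was 0.11 without it. Derl1, a channel subunit, read 9.65, 9.76 and 9.94 and then 9.85, 9.89 and 10.12, a difference of 0.17 (SE 0.13). Derl3, its stress-induced relative, read 5.03, 5.23 and 5.38 and then 4.99, 6.02 and 5.39. The difference of 0.25 (SE 0.26) came from CREB-H replicate 2 and was -0.02 without it. Vimp, a selenoprotein that recruits the p97 ATPase, differed by 0.20 (SE 0.22; 0.046 without CREB-H replicate 3), the HRD1 partner Sel1l by 0.13 (SE 0.18) and Derl2 by 0.00 (SE 0.19). Syvn1 itself, at -0.14 (SE 0.15), was the 1 ERAD gene on the lower side.

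Folding and ERAD were then compared with each other. The median difference was 0.03 over 24 folding genes (16 higher, 8 lower) and 0.15 over 12 ERAD genes (11 higher, 1 lower), -0.12 for folding minus ERAD. Of all probe sets 46.3% were higher (51.1% after quantile normalization), and of the named genes 50.8%. This gap rested on 1 liver. For each array, the mean of the folding genes minus the mean of the ERAD genes, each gene taken relative to its mean over the 6 arrays, was 0.0013, 0.06 and 0.12 with GFP and -0.0040, 0.08 and -0.25 with CREB-H. CREB-H replicate 3 was the single array with ERAD well above folding, and the other 5 lay between -0.0040 and 0.12. Without it the medians were 0.08 for folding and 0.07 for ERAD, and their gap was 0.0044. On the 4 arrays without Y-linked signal the gap was 0.02. The folding median was -0.05 with GFP replicate 1 left out and -0.04 with CREB-H replicate 2 left out, with 9 of 24 folding genes higher in both fits, so its sign depended on either array. The ERAD median was positive in every fit, from 0.07 to 0.22, with 9 to 11 of 12 genes higher. No test was made on these medians, because the members were chosen together.

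**Figure D3:**
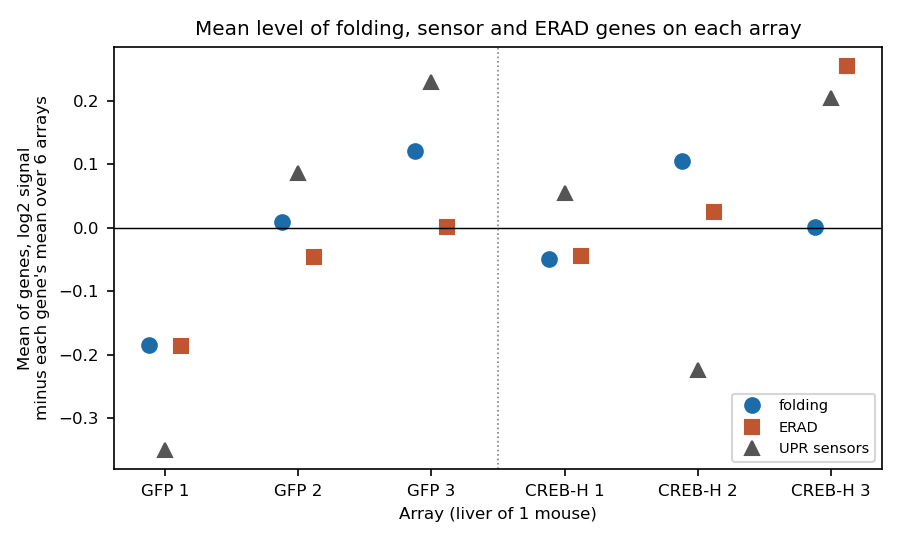
Mean log2 signal of the folding (circles), ERAD (squares) and UPR sensor genes (triangles) on each array, each gene relative to its mean over the 6 arrays. Folding and ERAD lie furthest apart in CREB-H replicate 3 (0.0003 and 0.25), with ERAD above, and next in GFP replicate 3 (0.12 and 0.0008), with folding above. GFP replicate 1 is lowest in folding and ERAD alike (-0.19 in both).

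Livers of 1 group differed among themselves. The median range was 0.36 among GFP arrays and 0.33 among CREB-H arrays, against 0.31 and 0.30 for all probe sets. Many members deviated together: within the GFP group 28 of 39 genes (71.8%) were lowest in replicate 1 and 26 (66.7%) highest in replicate 3, against 33.0% and 36.4% of all probe sets. In the CREB-H group 17 genes (43.6%) were lowest in replicate 1 and 19 (48.7%) highest in replicate 2, against 31.7% and 33.0% of all probe sets. Replicate 3 was in each group the array with Y-linked signal (7.83 with GFP and 7.67 with CREB-H). The part of what this signal marks in the spread was not tested. All 10 genes with an ERSE in their promoter window were lowest in GFP replicate 1 among the GFP arrays, and 7 were highest in GFP replicate 3. For the 22 genes with a window that holds neither ERSE nor ERSE-II, these counts were 13 and 14. With the ERSE-II genes added to the ERSE genes they were 11 and 8 of 12, since Herpud1 was lowest in GFP replicate 3. The ERSE genes had mean deviations of -0.20, 0.06 and 0.19 on the GFP arrays and of -0.16, 0.12 and -0.01 on the CREB-H arrays. Between the groups they did not lean to one side, with 4 higher and 6 lower and a median of -0.01. The 22 genes with neither element had 18 higher and 4 lower and a median of 0.07, and this difference was not tested.

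Genes of the daily clock varied on the same arrays. The mean of 9 clock outputs that peak with Dbp was 7.40, 7.20 and 7.93 on the GFP arrays and 8.05, 8.05 and 7.80 on the CREB-H arrays, and that of 5 genes that peak with Arntl was 7.47, 7.74 and 6.87 and then 6.54, 6.75 and 7.36. GFP replicate 3 is the GFP array with Y-linked signal and the one where most members were highest. It stood apart from the other GFP arrays in the means of both lists, but lay within the range of the CREB-H arrays. GFP replicate 1, where most members were lowest, lay nearer to GFP replicate 2, and both were outside the CREB-H range in both lists. The Dbp list did not move as one. On the GFP arrays Nr1d1 read 6.91, 6.46 and 10.25, whereas Per1 (8.78, 8.86 and 7.36) and Ciart (7.82, 7.14 and 6.76) were lowest in replicate 3. Between the groups 8 of the 9 Dbp-phase genes were higher with CREB-H (median 0.38) and 5 of 5 Arntl-phase genes lower (median -0.50), and none passed. The hour at which each liver was taken was not given in the sources used here, and the part of the clock in the values of the members was not tested.

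**Figure D4:**
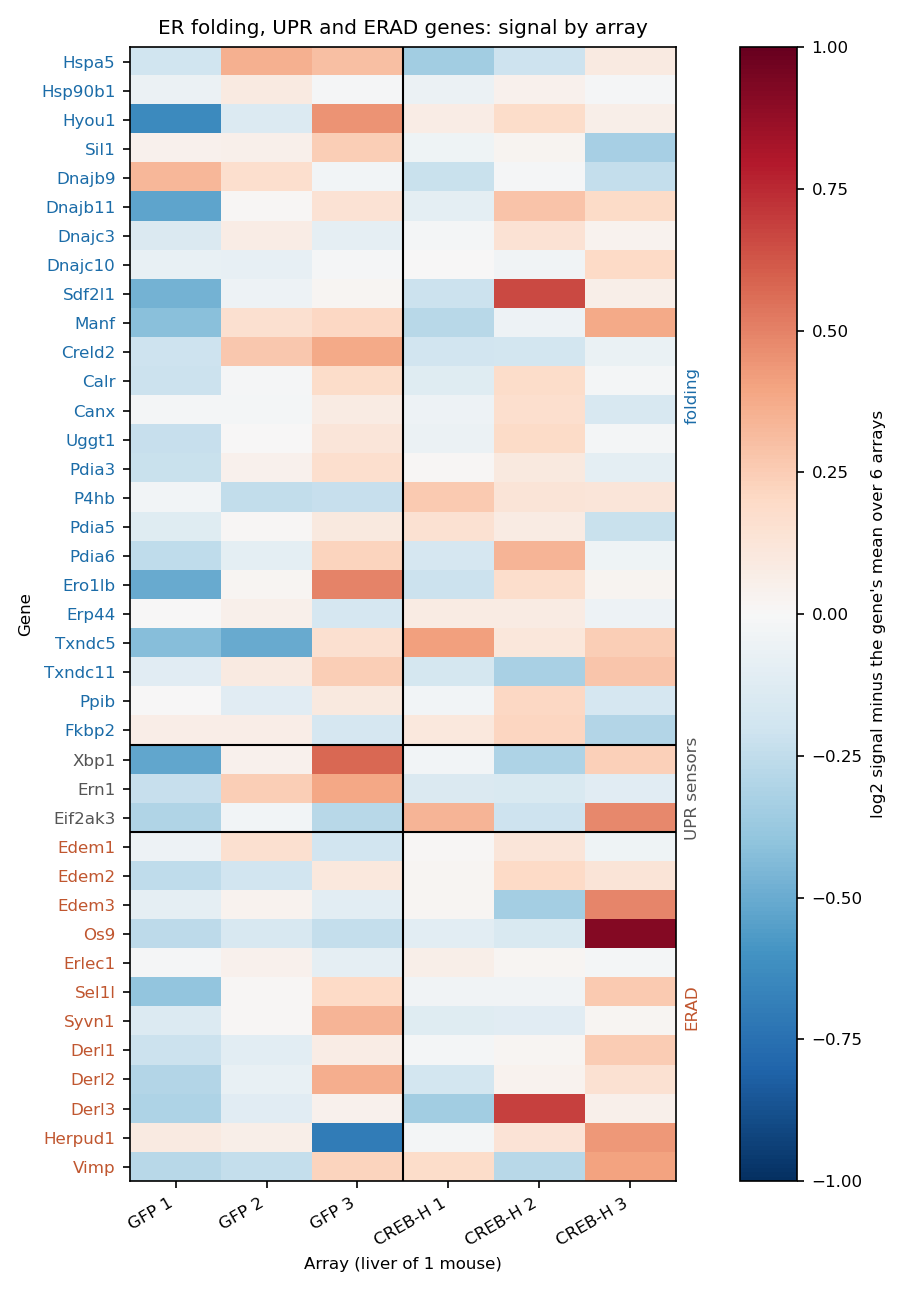
Log2 signal of the 39 genes (rows, by role) on each of the 6 arrays (columns), relative to the mean of each gene over the arrays; red is above and blue below it. GFP replicate 1 is blue in most rows (lowest of the GFP arrays in 28 of 39), and no block of rows separates the 3 GFP columns from the 3 CREB-H columns.

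Other genes of the same pathways, taken from lists drawn up from general knowledge, did not pass either. Of 29 further folding enzymes and cofactors measured, 17 were higher and 12 lower (median 0.04). Of the 29, 2 had an unadjusted p below 0.05, both higher, against 6.89% of all probe sets in either direction and 2.93% higher. They were Lman1, a cargo receptor for glycoproteins leaving the ER, at 0.46 (SE 0.11, adjusted p = 0.623), and the prolyl isomerase Ppic at 0.47 (SE 0.13, adjusted p = 0.636). Qsox1, a sulfhydryl oxidase, stood at -0.31 (SE 0.13). Of 14 further sensors and regulators, 7 were higher and 7 lower (median 0.00), and 0 had an unadjusted p below 0.05. The lowest p belonged to Bak1 (0.25, SE 0.15), Dab2ip (0.23, SE 0.15) and Ern2, the second gene of the IRE1 family (0.13, SE 0.12). Of 41 further ERAD genes 13 were higher and 28 lower (median -0.03), against 11 and 1 among the ERAD members. In that list of 41, 2 genes had an unadjusted p below 0.05, both higher. They were Erlin1, a lipid raft protein of the ER, at 0.61 (SE 0.19, adjusted p = 0.647), and the ubiquitin ligase gene Ube4b at 0.45 (SE 0.15, adjusted p = 0.686). Ngly1, which strips glycans from dislocated proteins, stood at -0.18 (SE 0.12).

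Grouped by the branch of the UPR that is known to induce them, the targets of ATF6 had a median of 0.10 (10 of 14 higher) and those of XBP1 a median of 0.12 (18 of 19 higher), with 0 at an unadjusted p below 0.05 in either list. These lists share 14 and 9 of their genes with the members, so they are not independent of them. The XBP1 list differed by 0.44 (SE 0.24) in the retrieval receptor gene Kdelr3 and by -0.31 in Dnajb9, its 1 lower gene. Kdelr3 read only 4.40 to 5.43, around the medians of the arrays, and its detection above background could not be examined. The PERK and ATF4 branch had a median of 0.03 over 22 genes, 12 higher and 10 lower. Of the 22, 2 higher and 1 lower had an unadjusted p below 0.05, against 2.93% and 3.97% of all probe sets. The groups did not overlap in 2 higher and 1 lower, against 5.23% and 7.1% of all probe sets. In this branch Ddit3, the gene of CHOP, which promotes cell death in prolonged stress, was lower without overlap at -0.37 (SE 0.12, adjusted p = 0.676). The factor Atf5 at 0.76 (SE 0.27, adjusted p = 0.693) and the glutathione-degrading enzyme gene Chac1 at 0.51 (SE 0.21, adjusted p = 0.717) were higher without overlap. Atf5 was 0.43 without CREB-H replicate 3, and Chac1 was 0.32 without CREB-H replicate 1. The 10 mRNAs known to be cut by IRE1 had a median of 0.07, 8 higher and 2 lower, led by Pdgfrb at 0.19 (SE 0.10), Ces1g at -0.99 (SE 0.58) and Cyp1a2 at -0.26 (SE 0.15). Without CREB-H replicate 3, Ces1g was -0.27 and Cyp1a2 -0.12. No gene of these lists passed over all probe sets.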

How the data were processed

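Total RNA from 6 mouse livers was converted to biotin-labelled single-stranded cDNA and hybridised to 1 array each, per the labels' protocols. The value table deposited by the authors holds 1 log2 signal for each probe set and array. The submitters' processing notes name the Transcriptome Analysis Console; its version, summarisation, normalization and filters were not given in the sources used here. Detection above background could not be examined.

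All 41345 probe sets were compared, CREB-H against GFP, with limma 3.58.1 in R 4.3.3 (lmFit, eBayes, group as the single term), two-sided, p-values adjusted after Benjamini-Hochberg over this whole table, threshold 0.05. Intervals of 95% use the moderated SE. GEO's platform annotation named 23521 probe sets with 1 gene. Of a gene's probe sets the one with the highest mean over 6 arrays was used (3 members had more than 1). The members, lists and tests were chosen with earlier results of these data known. Values of every array are given for the 3 sensors and for up to 3 members per role with the lowest unadjusted p. Of each further pathway list up to 3 genes with the lowest p are named. Replicates are listed as biological, 1 mouse each. The fit was tested on simulated data. Figures were drawn with matplotlib 3.10.9.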

Additional observations from a re-analysis of the deposited data

How the results depend on the processing

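Under every alternative run (quantile normalization, median centring, no probe sets among the dimmest 25% or 50%, limma-trend, array weights, the replicate block, a term for Y-linked signal, the 4 arrays without it, other choices of probe set, each array left out), 0 of 39 members passed in limma; at an unadjusted p below 0.05 there were 2 in the reported fit and 0 to 5 over the alternatives. Leaving out 1 array gave 0 to 5 such genes and 6 to 9 without overlap (20.8% to 25.1% of all probe sets then), and a gap between folding and ERAD of -0.22 to 0.0044. On the 4 arrays without Y-linked signal there were 1 and 14 (39.7% of all probe sets without overlap) and a gap of 0.022. The labels state no pairing by replicate number, and 3 arrays per group cannot settle whether one exists. Same-numbered arrays had correlations of 0.08, 0.13 and 0.33 in their deviations. GFP replicates 2 and 3 correlated best with the CREB-H array of the same number, and GFP replicate 1 with CREB-H replicate 2 (0.16). The replicate 3 arrays are also those with Y-linked signal. With the replicate block 0 of 39 members passed, 2 had an unadjusted p below 0.05, and the calls over all probe sets went from 2 to 0. Counting Dnajb9 and Dnajc10, or Txndc11, as ERAD gave a gap of -0.10 each.

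The sign turned in 20 members, Herpud1, Derl3 and Hyou1 with larger differences among them. A difference near 0, such as that of Hsp90b1 (-0.02), turns with a small shift. The share of all probe sets that turned was not counted, so the members cannot be set against it. Hsp90b1 was 0.0076 and Derl2 -0.0051 under quantile normalization, Hsp90b1 2.66667e-05 and Ero1lb 0.011 after centring, and Manf -0.038 and Ero1lb 0.010 with array weights. On the 4 arrays Manf was -0.037, Canx 0.082, Ero1lb 0.23, Xbp1 0.070, Edem3 -0.13 and Herpud1 -0.015. With 1 array left out the ranges were -0.050 to 0.49 for Hyou1, -0.17 to 0.18 for Manf, -0.073 to 0.13 for Calr, -0.021 to 0.15 for Uggt1, -0.10 to 0.096 for Pdia3, -0.069 to 0.12 for Pdia5, -0.060 to 0.22 for Pdia6, -0.041 to 0.26 for Sel1l, -0.14 to 0.19 for Derl2, -0.053 to 0.025 for Hsp90b1, -0.087 to 0.095 for Ppib, -0.11 to 0.049 for Canx, -0.26 to 0.24 for Ero1lb, -0.082 to 0.18 for Fkbp2, -0.34 to 0.21 for Xbp1, -0.024 to 0.15 for Edem1, -0.24 to 0.0011 for Syvn1, -0.022 to 0.49 for Derl3 and -0.11 to 0.31 for Edem3. The other 19 members kept their sign in all alternatives. The cause of these turns was not tested. The median over all probe sets lay between -0.0188 and 0.0047 in every fit.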
